A study of Mus musculus with 2 samples.

Results

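Long non-coding RNAs and the host genes of small nucleolar RNAs (snoRNAs) were described in forebrain RNA of newborn mice. The set holds the genes named Snhg followed by a number and 19 further named genes, and 29 of them were present among the 43346 genes of the expression tables. Of the 29, 27 were matched by GENCODE symbol. Oip5os1 (listed as 1700020I14Rik) and Snhg16 (listed as 1810032O08Rik) were matched through RefSeq names and overlapping position, a step added after values were seen. RNA came from the whole forebrain of strain B6NCrl at postnatal day 0, with no genetic change or treatment named. It was longer than 200 nt and entered a Smart-seq library at 13 pg, the amount given as 1 cell-equivalent. There was 1 library from pup 1 (replicate 1) and 1 from pup 3 (replicate 2), although the labels carry the same donor identifier for both. These form 1 group, so no p-value is given, and the spread between the libraries does not separate animals from technical steps.

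Long non-coding RNAs are transcripts without a known protein product, and they act or are read out in several ways. In a snoRNA host gene, the spliced exons are often exported and degraded by nonsense-mediated decay, while snoRNAs cut from the introns guide chemical modification of ribosomal RNA. MicroRNA hosts carry microRNA hairpins in a similar manner, and nuclear RNAs such as Malat1 and Neat1 stay with speckles or paraspeckles. Many snoRNA hosts and ribosomal protein genes start with a C followed by a run of pyrimidines, a start known as a terminal oligopyrimidine motif.

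The starts of 8 genes are shown because this motif is what many hosts are known for. Each is 35 bases of RefSeq sequence on GRCm38.p6, with 15 bases before the annotated start and 20 from it. Capitals mark a run of at least 5 pyrimidines (C or T) that opens with C and begins within 10 bases of the start. Such a run is not a call of the motif, since none of those found opens at the annotated start itself. That of Snhg9 lies wholly before the annotated start, and that of Snhg5 opens 9 bases after it. The first 5 hold such a run and the last 3 do not. The 8 were not taken by rank, so their split is not the rate in the set, which is given below. Tug1, Snhg11 and Snhg15 have higher mean levels than Oip5os1 and Snhg9, hold no run and are not shown.
Gas5, chr1:161035151-161035185, plus strand: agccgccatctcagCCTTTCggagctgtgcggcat
Oip5os1, chr2:119594281-119594315, plus strand: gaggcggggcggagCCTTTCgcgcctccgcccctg
Snhg3, chr4:132353667-132353701, minus strand: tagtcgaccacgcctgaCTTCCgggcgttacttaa
Snhg5, chr9:88522878-88522912, minus strand: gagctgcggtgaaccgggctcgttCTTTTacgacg
Snhg9, chr17:24719946-24719980, minus strand: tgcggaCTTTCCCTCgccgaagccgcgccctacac
Malat1, chr19:5802653-5802687, minus strand: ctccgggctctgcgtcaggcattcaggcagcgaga
Zfas1, chr2:167062919-167062953, plus strand: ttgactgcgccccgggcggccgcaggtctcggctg
Snhg20, chr11:117076768-117076802, plus strand: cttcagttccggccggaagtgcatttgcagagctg
Gas5 and Oip5os1 share the 6 letters CCTTTC at the same place, 1 base before the annotated start. Only the gene's own strand, the one shown, was searched, and RefSeq holds another Gas5 start without the run. A promoter entry was found for 23 of the 29 genes, and 14 of the 23 (60.9%) held a run. That share was 34.4% over all 27025 gene symbols in the same table. Among snoRNA hosts 7 of 13 held one, against 7 of 10 for the other genes with an entry. With a run of at least 7 pyrimidines, 6 of the 23 held one (26.1%), against 14.1% of all symbols.

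The mature microRNAs of 3 host genes are shown with the seed, bases 2 to 8, in capitals. The host gene was measured here and the microRNA was not, and the measured transcripts do not all span the hairpins. They are from RefSeq on GRCm38.p6. The first pair lies in Mir9-3hg on chromosome 7, the next 3 lie in Mir99ahg on chromosome 16, and the last pair lies in Dleu2 on chromosome 14.
miR-9-5p: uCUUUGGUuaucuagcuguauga
miR-9-3p: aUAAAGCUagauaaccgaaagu
miR-99a-5p: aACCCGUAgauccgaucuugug
let-7c-5p: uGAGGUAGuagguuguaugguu
miR-125b-5p: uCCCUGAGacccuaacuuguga
miR-15a-5p: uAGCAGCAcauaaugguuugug
miR-16-5p: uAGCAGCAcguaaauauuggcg
The Dleu2 pair shares the seed AGCAGCA, and the 5 others each have a seed of their own. No RefSeq entry for Mir124a-1 was matched within its host, Mir124a-1hg.

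The deposited expected reads summed to 41082811 in pup 1 and 29881397 in pup 3, and 10096 and 6960 genes were found. A gene was called found at 1 TPM or more, where TPM is abundance per transcript length, set to an equal total for both libraries. Of the deposited TPM, spike-in RNA made up 4.46% in pup 1, against 7.3% in pup 3. Of 8 forebrain markers 6 were found in both pups, while Dlx2 was at 0 in both, and none of 5 hindbrain and spinal cord markers was found. Of 3 markers each, both pups held 3 for blood, 1 for choroid plexus (Ttr), 1 for meninges (Dcn), 1 for endothelium (Cldn5), 1 for the oligodendrocyte lineage (Pdgfra) and 0 for microglia. Found in pup 1 alone were 1 for choroid plexus (Folr1), 2 for meninges (Col1a1, Slc6a13), 2 for the oligodendrocyte lineage (Olig1, Mbp) and 2 for microglia (C1qa, Csf1r). In such a tissue extract, fewer cells of a type and less RNA per cell cannot be told apart. The part of these markers in the differences described here was not tested.

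Of the 29 genes, 26 (89.7%) were found in at least 1 pup, against 25.9% of all genes, 6.27% of the other genes of long non-coding biotypes and 46.4% of protein-coding genes. The 29 were chosen with earlier results of these data known, so this difference in shares is not read as a result. Of those 26, 14 were found in both pups (53.8%), close to the 52.1% of all genes found in either. Another 10 were found in pup 1 alone, where the share over all genes was 37.9%. Only Snhg15 and Snhg18 were found in pup 3 alone, where the share over all genes was 9.98%. Neat1, Pvt1 and Snhg17 had 0 reads in both pups. The floor of 3 reads corresponds to 0.0138 TPM in pup 1, against 0.0158 TPM in pup 3 for Neat1, to 0.0802 and 0.0919 TPM for Pvt1, and to 0.0788 and 0.0903 TPM for Snhg17. Floors cover counting error only, and do not cover loss of molecules before sequencing. Deposited TPM intervals of these 3 genes reached above the floors. The upper bounds were 0.136 and 0.157 TPM for Neat1, and 1.01 and 1.156 TPM for Snhg17, in pup 1 and pup 3.

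The log2 ratio of TPM + 1, pup 1 over pup 3, had a median of 1.46 over the 26 genes, against 0.84 over all 11215 genes found in either pup. The size of this median depended on low genes: it was 2.19 with a pseudocount of 0.1, 0.51 with a pseudocount of 10, and 0.71 over the genes of the set at a mean of 10 TPM or more. TPM + 1 was 2-fold or more higher in pup 1 for 15 of the 26, where 48.3% of all genes found were. It was 2-fold or more higher in pup 3 for 6, where 22.6% of all genes found were. The other 5, Gas5, Snhg5, Snhg11, Snhg20 and Pantr1, lay within 2-fold and all had a mean above 50 TPM. Level and finding in both pups went together: all 7 genes with a mean of 100 TPM or more were found in both, as were 99.1% of all genes at that level. From 50 to 100 TPM, 3 of 4 were found in both, where the share over all genes was 91.3%. From 10 to 50 TPM, 3 of 6 were found in both, where the share over all genes was 53.0%, and from 1 to 10 TPM it was 1 of 6, where the share was 19%.

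**Figure D1:**
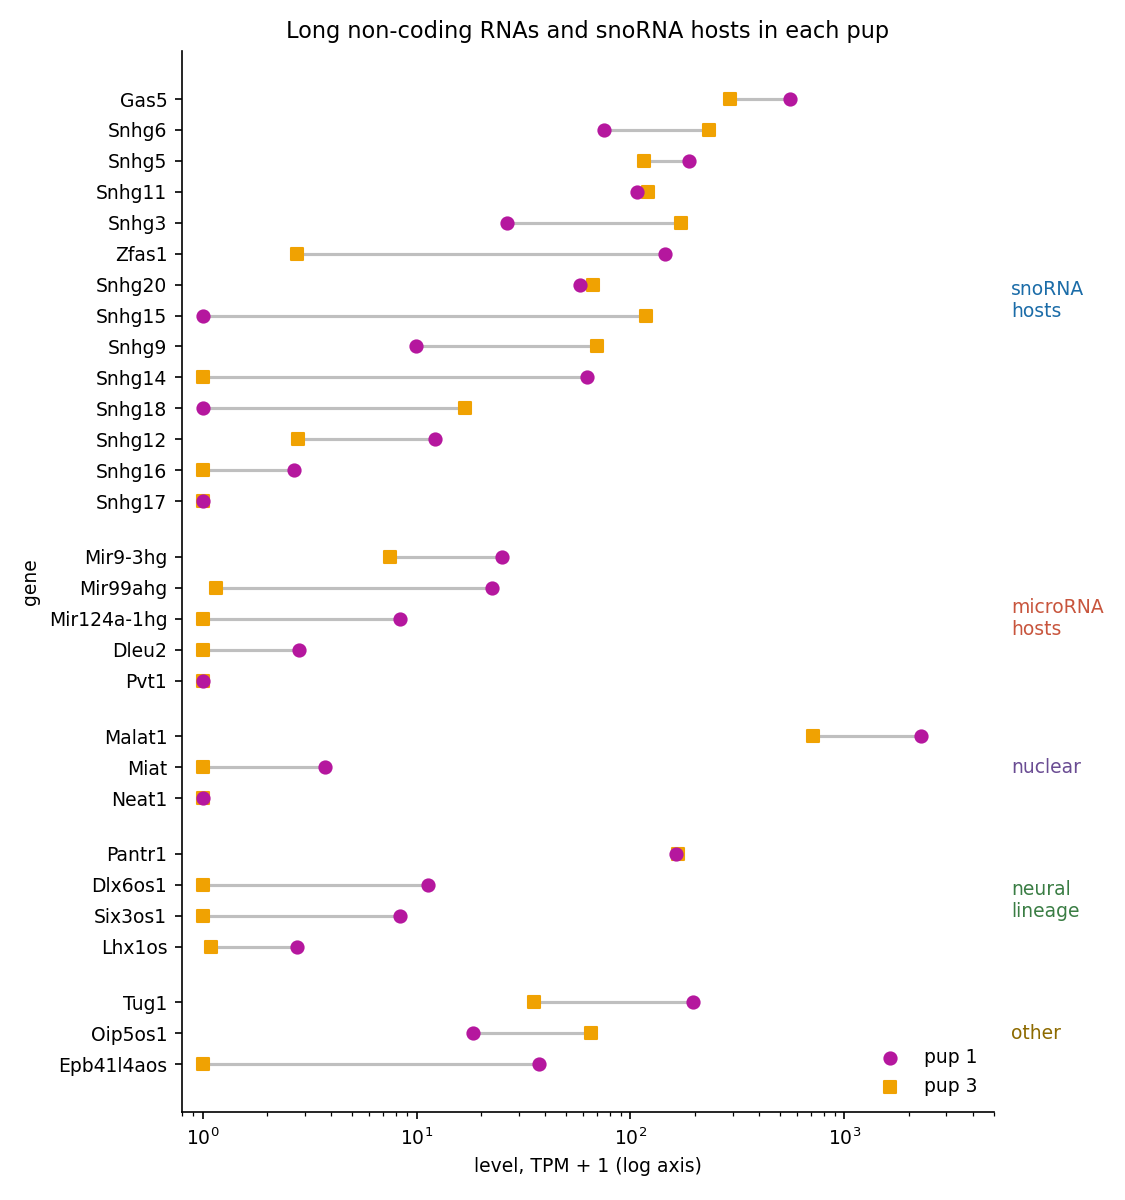
Level of each of the 29 genes in pup 1 (circles) and pup 3 (squares), as TPM + 1 on a log axis, ordered by role and by mean level; grey lines join the 2 libraries. Malat1 is highest in both pups, at 2279 and 709.7 TPM, and Neat1, Pvt1 and Snhg17 are at 0 in both.

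**Figure D2:**
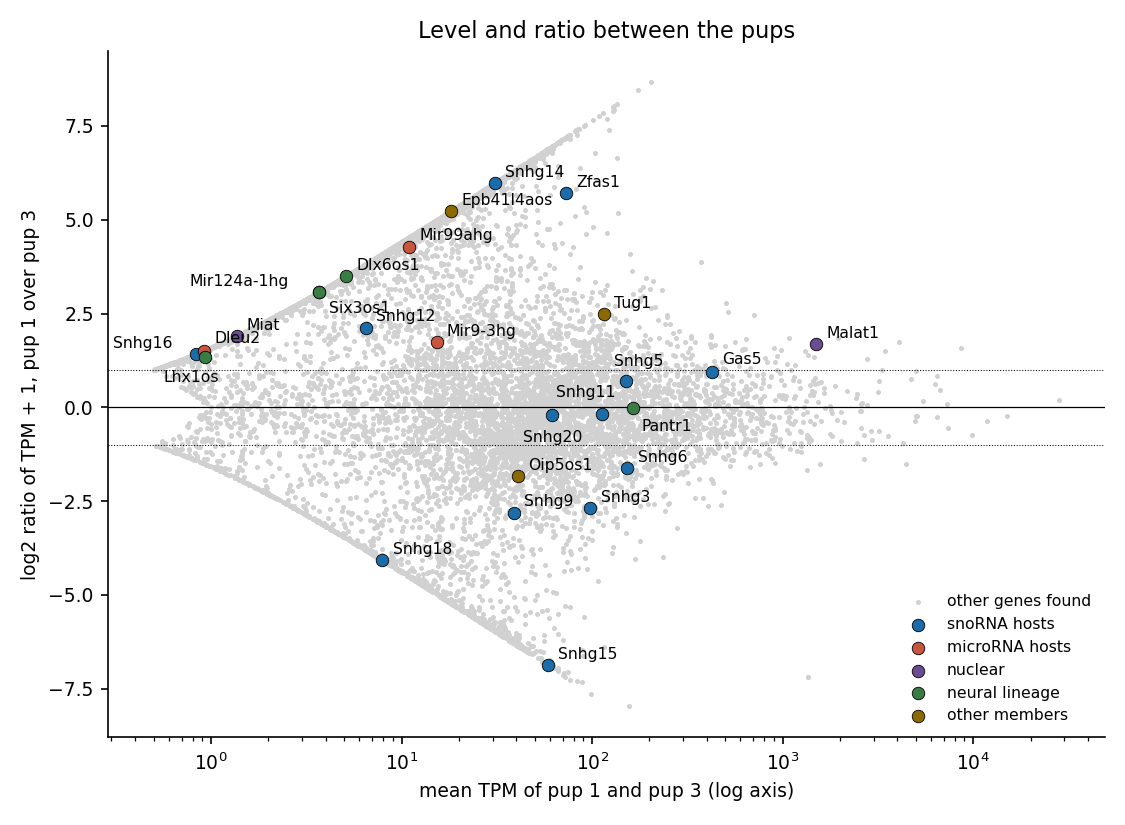
Log2 ratio of TPM + 1 (pup 1 over pup 3) against mean TPM on a log axis for the genes of the set (coloured by role) and all other genes found in either pup (grey); dotted lines mark 2-fold. Genes along the outer edges were at or near 0 in 1 pup, as Snhg14 and Snhg15 were.

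Malat1, a nuclear speckle RNA abundant in most cells (ENSMUSG00000092341, mm10 chr19:5795690-5802672, minus strand), was the most abundant gene of the set. It had 2279 TPM from 29292 reads in pup 1, against 709.7 TPM from 7109 reads in pup 3, a mean of 1494 ± 1110 TPM (SD, n = 2). Pup 1 was 3.21-fold higher, and Malat1 ranked 2 of 6854 long non-coding genes by mean level. Malat1 made up 57% of the summed TPM of the set in pup 1, against 32.6% in pup 3. Most of that level was not assigned to the full-length RNA. The 485-nt spliced transcript Malat1-203, which covers chr19:5801916-5802671 at the 5′ end of the gene, took 2243 TPM in pup 1, against 704.6 TPM in pup 3. Its assigned reads were 22977 in pup 1 and 6303 in pup 3. The full-length 6983-nt transcript Malat1-201 took 6292 reads, or 34.4 TPM, in pup 1 and 806 reads, or 5.05 TPM, in pup 3. When reads of the gene were divided by the longest listed transcript instead, Malat1 stood at 160.3 TPM in pup 1, against 44.6 TPM in pup 3. The gene was higher in pup 1 under both lengths, but its level depended on which transcript the reads were assigned to.

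An unreviewed transcript on the opposite strand, Gm37376 (chr19:5801941-5802393), lies within the same end of Malat1. It was given 11188 reads in pup 1 and 1785 in pup 3, or 1191 and 217.6 TPM. The strand setting of the counting is not given in the sources used here, so reads from Malat1 and from Gm37376 cannot be told apart. The other nuclear RNAs were low. Miat, known for binding splicing factors in neurons, had 626 reads (2.72 TPM) in pup 1 and 0 reads in pup 3, where the floor of 3 reads was 0.0399 TPM. Neat1, the scaffold RNA of paraspeckles, had no reads, while 9 of 10 listed paraspeckle proteins were found in both pups. Hnrnpk stood at 1592 and 727.5 TPM, Hnrnpa1 at 756.6 and 244.6 TPM and Nono at 412.1 and 262.1 TPM for pup 1 and pup 3. Of the 9 found, 4 were 2-fold or more higher in pup 1 and 2 in pup 3, where the shares over all genes were 48.3% and 22.6%. All 6 listed splicing factors that bind Malat1 or Miat were found in both pups. Srsf3 stood at 293.4 and 339.3 TPM, Srsf2 at 220.4 and 91.2 TPM and Qk at 32.3 and 116.8 TPM for pup 1 and pup 3.

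The 14 snoRNA hosts differed from pup to pup in both directions. Found in both pups were 9, 2 were found in each pup alone, and 1 in neither. The 9 made up 69.2% of the 13 hosts with a call, where the share over all genes was 52.1%. The shares over all genes were 37.9% for pup 1 alone and 9.98% for pup 3 alone. These shares were not matched for level. The median log2 ratio of the hosts was −0.18, against 1.90 over the 13 other genes of the set found in either pup. Epb41l4aos was kept among the others, although 1 annotated snoRNA, Gm23639, lies inside it. Its log2 ratio was 5.23, so counting it as a host would raise the host median. Medians and sums with it moved were not computed, so the sign of the host median depends on this grouping. The snoRNA hosts had a median level of 41.3 TPM in pup 1 and 67.3 TPM in pup 3, while the 15 others had medians of 10.3 and 0 TPM, so role and level were not separated. Their summed level was nearly the same, 1233 TPM in pup 1, against 1199 TPM in pup 3. Without Malat1, the 14 other genes summed to 488.8 TPM in pup 1, against 270.6 TPM in pup 3. With the longest listed transcript as length, the host sum was 513.5 TPM in pup 1, against 668.1 TPM in pup 3, and that of the 14 others was 298.4 and 80.95 TPM.

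**Figure D3:**
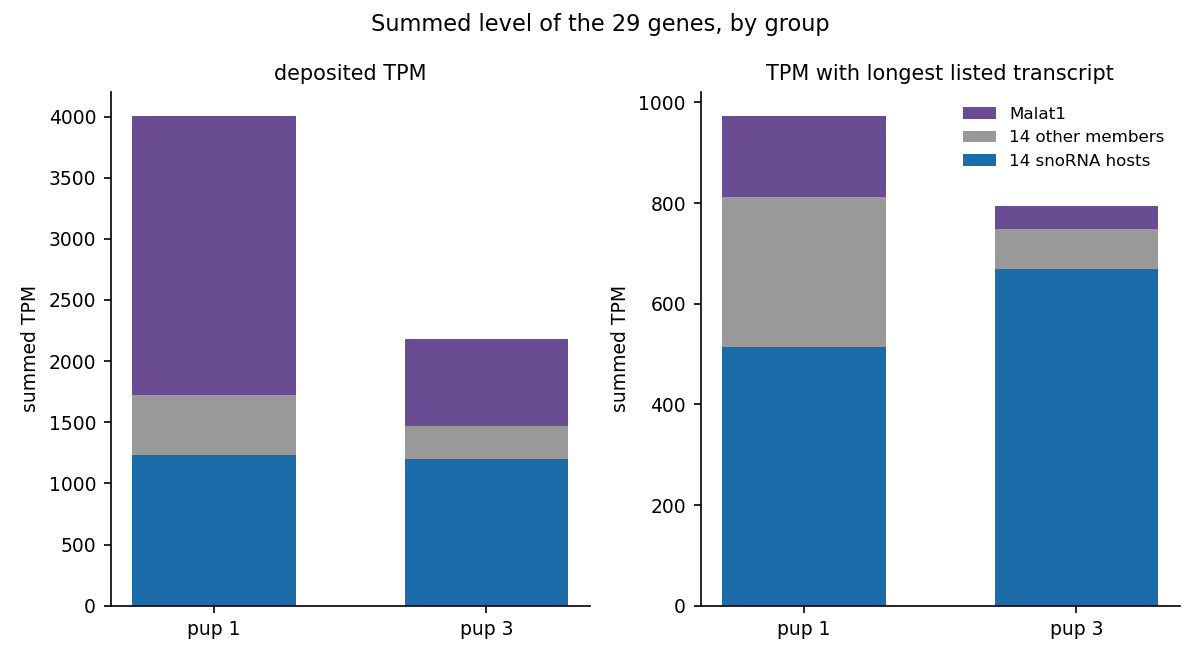
Summed TPM of the 14 snoRNA hosts, Malat1 and the 14 other genes in pup 1 and pup 3, as deposited (left) and with each gene's reads divided by its longest listed transcript (right; another vertical scale). The snoRNA hosts sum to 1233 and 1199 TPM on the left, and Malat1 stands at 2279 and 709.7 TPM on the left and at 160.3 and 44.6 TPM on the right.

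Gas5, a growth-arrest RNA whose introns encode a cluster of box C/D snoRNAs (ENSMUSG00000053332, chr1:161034422-161038539, plus strand), was the highest host in both pups. It had 555.6 TPM in pup 1, against 291.5 TPM in pup 3 (mean 423.5 ± 186.7 TPM, SD, n = 2), a 1.91-fold difference. Zbtb37, which overlaps its upstream end on the opposite strand, had 1.86 TPM in pup 1, against 0 in pup 3. The 557-nt spliced transcript Gas5-210 led in both pups with 67.8% and 58.7% of the gene's TPM. Transcripts annotated as retaining an intron held 12.8% in pup 1 and 28% in pup 3. Snhg5, another host of box C/D snoRNAs, had 187.7 TPM in pup 1, against 114.3 TPM in pup 3, 1.64-fold higher in pup 1. Snhg11 is a neuronal host that GENCODE lists as protein-coding, and its levels were 105.8 TPM in pup 1, against 120.1 TPM in pup 3. In reads it was higher in pup 1 (16026 against 8093), so its order turned with the length used. Snhg20 was as close, at 57.1 TPM in pup 1, against 65.7 TPM in pup 3, from 748 and 753 reads. These 4 hosts lay within 2-fold.

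The other hosts lay farther apart. Snhg6 had 74.5 TPM in pup 1, against 231.5 TPM in pup 3, and was 3.11-fold higher in pup 3. Snhg3 was 6.67-fold higher in pup 3, at 25.5 TPM in pup 1, against 170.4 TPM in pup 3. Snhg9 was 7.67-fold higher in pup 3, with 8.97 TPM in pup 1, against 68.8 TPM in pup 3. It is a 183-nt entry with only 20 and 134 reads, and the ribosomal protein gene Rps2, with 17644 reads in pup 1 and 11699 in pup 3, overlaps it on the opposite strand. Without strand, reads of Snhg9 and Rps2 cannot be told apart. Zfas1, the host of a group of box C/D snoRNAs that lies antisense to the start of Znfx1 (0 TPM in both pups), went the other way. It had 143.4 TPM from 2164 reads in pup 1 and 1.75 TPM from 19 reads in pup 3, and was 81.9-fold higher in pup 1. Snhg12 had 11.2 TPM in pup 1, against 1.79 TPM in pup 3.

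Some hosts were found in only 1 library. Snhg15 had 0 reads in pup 1 and 1330 reads (116.9 TPM) in pup 3, 487.5-fold above the floor of 3 reads in pup 1. The deposited interval of Snhg15 in pup 1 reached 0.668 TPM, above its floor of 0.24 TPM, so this fold is no lower bound. Snhg18 also had 0 reads in pup 1, and 507 reads (15.8 TPM) in pup 3. Snhg14, the long host of the imprinted snoRNA clusters next to Ube3a, had 2410 reads (61.5 TPM) in pup 1 and 0 reads in pup 3. That is 872.9-fold above its floor of 0.0705 TPM in pup 3. Its deposited interval in pup 3 reached 1.45 TPM, so this fold is no lower bound either. Ube3a, whose span overlaps an end of Snhg14 on the opposite strand, had 4.79 TPM in pup 1, against 39.3 TPM in pup 3, so these neighbours were high in different libraries. Gm38393, a coding entry on the same strand whose span overlaps an end of Snhg14, had 1065 reads in pup 1 and 3 in pup 3. Snhg16 had 34 reads in pup 1 and 0 in pup 3.

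Small RNAs cut from these hosts were largely outside the reach of the tables. The tables list 253 snoRNA or scaRNA entries inside the hosts named by the rule, of which 208 lie in Snhg14. An effective length of 0, which cannot take reads, was given to 235 of them, including all 9 listed in Gas5. Of the 18 with a length above 0, 5 had reads. Scarna13 in Snhg10 had 116 reads, Gm26083 in Snhg20 had 44, Snora24 in Snhg8 had 11 and Snord22 in Snhg1 had 9.5, all in pup 1 and with 0 in pup 3. Snora26 in Dancr had 0 reads in pup 1 and 18.4 in pup 3. All of these but Scarna13 lie inside an annotated exon of the host. Reads of the host exon and of the small RNA cannot be told apart there. For 4 of the 5, the host has no gene identifier of its own among the tables. None of the 10 microRNA entries had reads, and 8 of them also had an effective length of 0.

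Genes that work with the hosts were compared from lists of textbook roles. Over all 11215 genes found, 6959 were higher in pup 1, the median log2 ratio was 0.84, and the shares 2-fold or more higher were 48.3% in pup 1 and 22.6% in pup 3. Of 11 snoRNP core proteins, which bind and stabilise snoRNAs, 6 were found in both pups and 3 in pup 1 alone, with a median log2 ratio of 1.78. Snu13, which binds the kink-turn of box C/D snoRNAs, had 387.7 TPM in pup 1, against 480.2 TPM in pup 3. Nop10, of the box H/ACA particle, had 121.8 and 301.0 TPM, and Nop56, of the box C/D particle, had 289.6 and 83.7 TPM for pup 1 and pup 3. Of 14 nonsense-mediated decay factors, 7 were 2-fold or more higher in pup 1 and 4 in pup 3. Eif4a3 stood at 228.3 and 245.7 TPM, Magoh at 54.3 and 162.8 TPM and Upf3a at 14.1 and 116.7 TPM for pup 1 and pup 3. The 21 protein-coding snoRNA hosts, such as Hspa8 (3963 and 2439 TPM), Rpl23a (1880 and 1199 TPM) and Atp5b (997.4 and 1811 TPM), were found in both pups in 20 cases. They were higher in pup 1 in 17 of 21, with a median log2 ratio of 0.65, and 7 reached 2-fold; at a mean of 100 TPM or more, 45.5% of all genes were higher in pup 1. Their median level was 669 TPM in pup 1, against 513.5 TPM in pup 3, well above that of the non-coding hosts.

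Of the 5 microRNA hosts, 3 were found only in pup 1, 1 in both libraries and 1 in neither. The 3 were Mir124a-1hg, Mir99ahg and Dleu2, at means of 3.69, 10.9 and 0.915 TPM. All genes at a mean of 1 to 10 TPM leaned the same way, with 2193 of 3277 found in pup 1 alone. From 10 to 50 TPM, 1632 of 4532 genes were found in pup 1 alone and 499 in pup 3 alone. Mir9-3hg, the host of Mir9-3 with its brain-enriched miR-9 pair shown above, had 24.0 TPM from 1057 reads in pup 1 and 6.5 TPM from 82 reads in pup 3. Its reads went to different transcripts, 93.5% of TPM to Mir9-3hg-201 in pup 1 and all of it to Mir9-3hg-207 in pup 3. Mir9-3hg-201 (chr7:79515232-79532591) starts downstream of Mir9-3 (chr7:79505264-79505353), so it does not span the hairpin. The span of Mir9-3hg-207 does hold it. Mir99ahg, whose annotated span carries miR-99a, let-7c and miR-125b, had 1223 reads (21.6 TPM) in pup 1 and 2 reads (0.16 TPM) in pup 3. All annotated Mir99ahg transcripts with reads end before the first of these hairpins. The Mir99ahg level is therefore that of the gene, and not of RNA that spans the hairpins. Mir124a-1hg, the host of a neuronal microRNA, had 784 reads (7.38 TPM) in pup 1 and 0 in pup 3. Dleu2 had 36 reads in pup 1 and 0 in pup 3, and Trim13, which overlaps it on the opposite strand, had 2799 reads in pup 1 and 0 in pup 3. Pvt1 had no reads, while its neighbour Myc had 0.43 TPM in pup 1, against 28.3 TPM in pup 3. Pvt1 was placed in this group by role, although the annotation used holds no microRNA entry inside it. Snhg20, kept among the snoRNA hosts, does hold a microRNA entry, Mir6516. Of 11 microRNA-processing genes 6 were found in both pups and 3 in pup 1 alone. Ddx5, a helicase of the nuclear processing complex, had 352.5 and 331.5 TPM, Tarbp2 had 104.1 and 51.3 TPM, and Drosha, which cuts the primary transcript, had 13.1 and 63.3 TPM for pup 1 and pup 3.

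Among the neural-lineage RNAs, Pantr1 stood out by its level. Pantr1, which lies next to the neural transcription factor gene Pou3f3, had 162.4 TPM in pup 1, against 165.1 TPM in pup 3 (163.7 ± 1.93 TPM, SD, n = 2). Its reads, 2014 in pup 1 and 1995 in pup 3, were also nearly equal, although the libraries differ in depth. Pou3f3 itself was low and close, at 12.4 TPM in pup 1, against 10.3 TPM in pup 3. Dlx6os1, an RNA of the Dlx5 and Dlx6 locus that marks forebrain interneuron lineages, had 1161 reads (10.3 TPM) in pup 1 and 0 reads in pup 3. Dlx5 had the same pattern, at 52.7 TPM in pup 1, against 0 TPM in pup 3, while other forebrain markers of inhibitory neurons varied. Dlx1 had 101.0 TPM in pup 1, against 9.81 TPM in pup 3, Gad2 had 18.9 TPM in pup 1, against 18.2 TPM in pup 3, and Dlx2 was at 0 in both. Dlx6, which Dlx6os1 overlaps, had 0 TPM in pup 1, against 0.13 TPM in pup 3. Six3os1 had 516 reads (7.37 TPM) in pup 1 and 0 in pup 3, while Six3 was at 0.15 TPM in pup 1, against 0 in pup 3. Lhx1os had 20 reads in pup 1 and 1 in pup 3, and Lhx1 was at 0 in both.

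Tug1, a widely expressed RNA named for its upregulation by taurine, had 195.7 TPM from 27209 reads in pup 1 and 34.2 TPM from 3781 reads in pup 3, and was 5.72-fold higher in pup 1. Its neighbour Morc2a, which it overlaps on the opposite strand, was at 0.07 TPM in pup 1, against 0 in pup 3. Short structured-RNA entries that lie within Tug1 on its own strand took few reads, such as Gm27517 with 199 in pup 1 and 0 in pup 3. The 6709-nt transcript Tug1-201 held 18.9% of Tug1 TPM in pup 1, against 0.117% in pup 3. Epb41l4aos had 321 reads (36.5 TPM) in pup 1 and 0 in pup 3, and its neighbour Epb41l4a stood at 1.3 TPM in pup 1, against 0 in pup 3.

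Oip5os1, known as Cyrano, is the long RNA that holds a highly complementary site for miR-7 and lowers that microRNA in mammalian brain. The site is shown with miR-7a-5p because the transcript that carries it was present in different amounts in the pups. Capitals mark the seed in the microRNA and its match in the site.
miR-7a-5p: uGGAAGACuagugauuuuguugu
Oip5os1 site, mm10 chr2:119602137-119602161, plus strand: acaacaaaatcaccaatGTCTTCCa
The site was found in the GENCODE M21 sequence of the 8300-nt transcript of Oip5os1, and all 12 bases at the 3′ end of the microRNA are complementary to it. The 1381-nt transcript lacks this site. Both transcripts share another seed match for miR-7, which has 3 of those 12 bases complementary. In pup 1 the long transcript took 3742 of the gene's reads and 99.4% of its TPM, while in pup 3 it took 373 reads and 3.04% of TPM. The short transcript took 3 reads in pup 1 and 1858 in pup 3. By deposited TPM, Oip5os1 was 3.73-fold higher in pup 3, at 17.3 TPM in pup 1, against 64.5 TPM in pup 3. With the longest transcript as length it was 17.2 TPM in pup 1, against 11.7 TPM in pup 3, so the direction turned round with the length used, and no direction is drawn for the gene, although it is 1 of the 6 counted above as higher in pup 3. Its neighbour Oip5 was at 0 TPM in both pups.

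Transcript use differed between the pups in other genes too. Leading transcripts were compared at a mean of 20 TPM or more, in genes with reads in both pups. Malat1, Gas5, Pantr1, Snhg3 and Snhg20 had the same leading transcript in both libraries, as did Snhg9, which has 1 listed transcript. Snhg6, Snhg5, Tug1, Snhg11, Zfas1 and Oip5os1 had different ones. Mir9-3hg, below that level at a mean of 15.3 TPM, also had different ones. For Pantr1 the lead in pup 1 was narrow, 43.7% of TPM for Pantr1-209 and 42.9% for Pantr1-212. With posterior mean TPM their order turned, to 42.1% and 43%. In pup 3 they held 95.2% and 0% of TPM. In Snhg11 the 5864-nt transcript held 98.7% of TPM in pup 1, against 39.1% in pup 3. In Snhg5 transcripts annotated as retaining an intron held 70.2% in pup 1 and 0.56% in pup 3. A 994-nt Snhg5 transcript with no M21 annotation held 23.7% in pup 1 and 97.6% in pup 3, so its intron retention is unknown and a difference in retained introns cannot be read from these shares. In Zfas1 retained-intron transcripts held 46.4% in pup 1 and 100% in pup 3, where the gene had 19 reads, and a 737-nt transcript with no M21 annotation held 53.5% in pup 1 and 0% in pup 3. Shares of transcripts are estimates that split shared reads, and with posterior mean TPM the leading Zfas1 transcript of pup 3 held 69.2% of that gene.

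**Figure D4:**
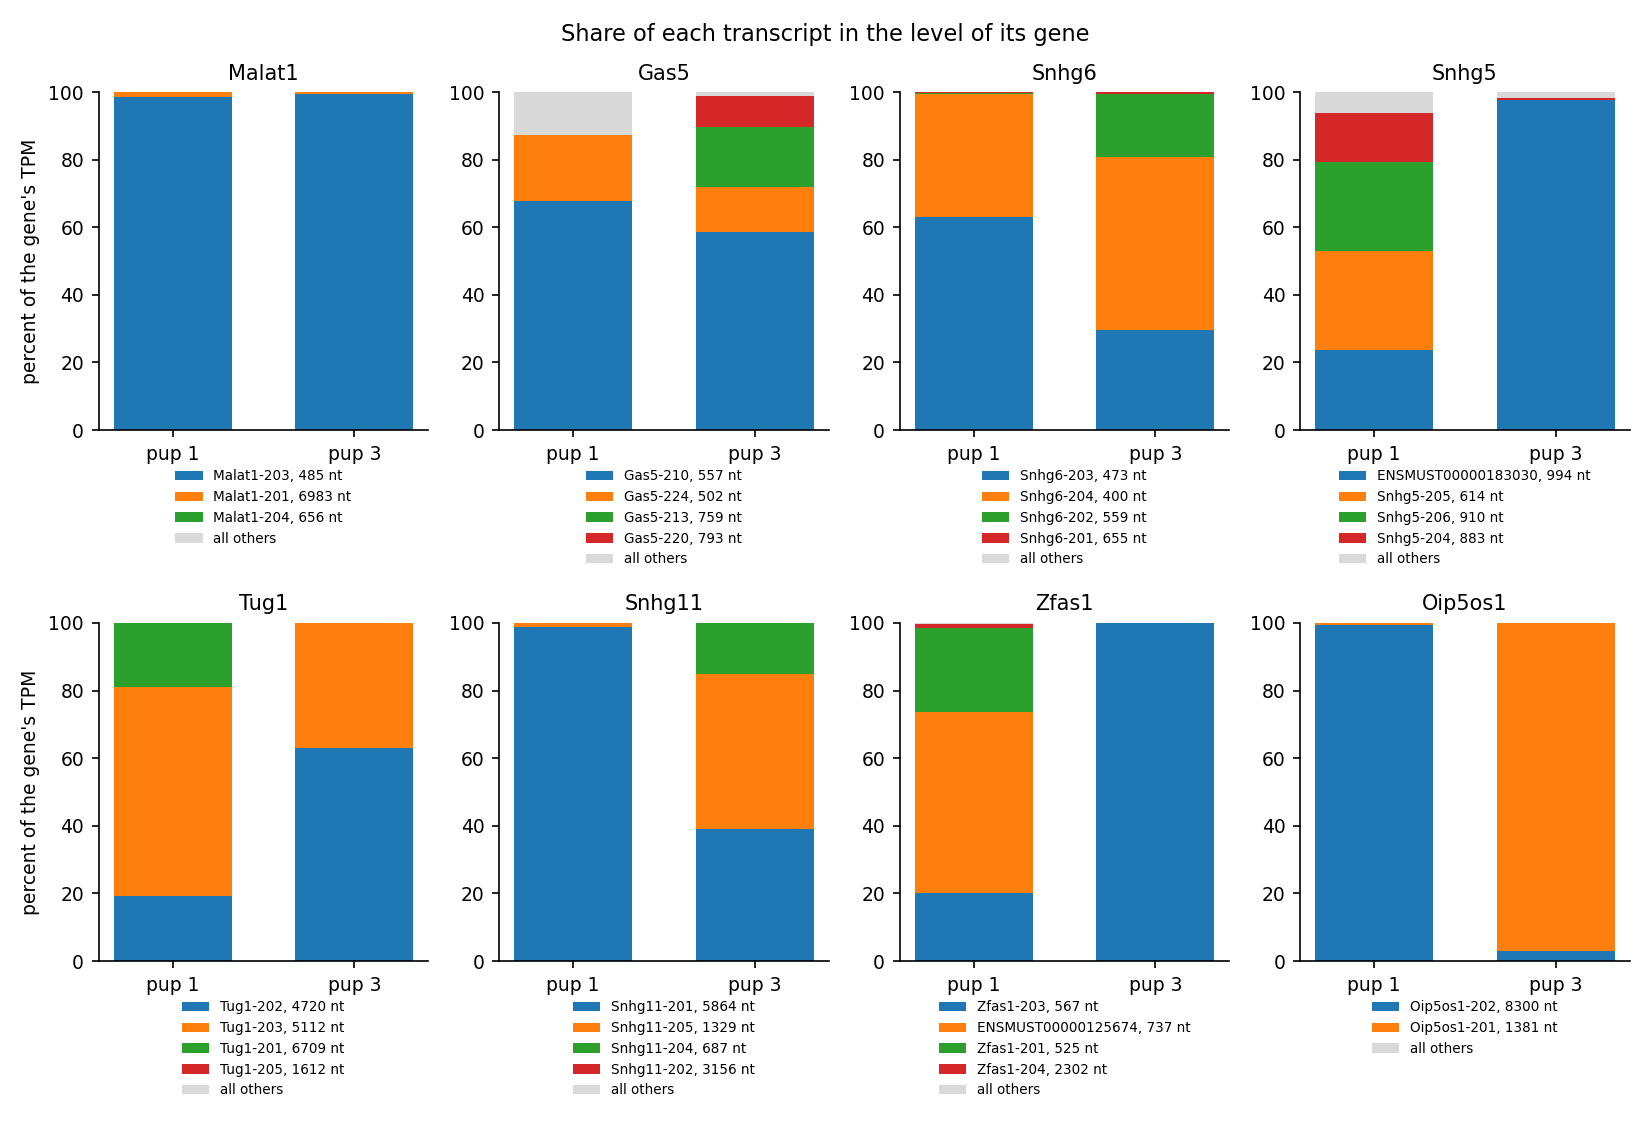
Percent of the TPM of a gene in each transcript, in pup 1 (left bar) and pup 3 (right bar), for 8 genes; the 4 transcripts with the largest share in either pup have a colour and the rest are grey. The leading transcript is the same in both pups for Malat1 and Gas5 and changes in the other 6 genes. Pantr1, Snhg3, Snhg20 and Snhg9, where it is also the same, are not shown.

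Some names of the rule have no gene identifier of their own among the tables. Snhg1, Snhg8, Snhg10, Dancr and Rmst have identifiers in GENCODE M21 that the tables do not use, and Snhg4 and Snhg7 appeared in RefSeq alone, so none of the 7 was counted. All 4 M21 transcripts of Dancr were listed under an older identifier, with 0 reads in pup 1 and 1311 reads (117.9 TPM) in pup 3. Of the 14 transcripts of Rmst 2 were listed, with 0 reads in both pups.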

How the data were processed

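The authors deposited a table per gene and per transcript for each library, with the column names RSEM writes, per the file headers. Deposited expected counts are estimates, in which a read that maps to several places is divided among them. Deposited TPM is scaled to the same total over all features, spike-ins included, and a posterior mean TPM stands beside it. Deposited FPKM is read here in its usual sense, reads divided by effective length and by the library total. The assembly was mm10 with annotation M4, per text deposited beside the tables. The aligner was not given in the sources used here, nor were the counter and the strand setting. Symbols and positions came from GENCODE M21, which named 42462 of 43346 genes (98.0%), and sequences from RefSeq (GRCm38.p6) and GENCODE M21.

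The genes, the role groups and the related lists were chosen with earlier results of these data known. Genes named are those at a mean of 10 TPM or more, those at 0 reads in both pups, the 5 highest others of each role, the 3 highest of each related list and listed neighbours; Dlx1, Gad2, Ube3a, Rps2, Gm37376, Gm38393, Gm27517, Dancr, small RNAs with reads and the Dleu2 microRNAs were named after their values were seen. A pseudocount of 1 TPM was added before log2, which understates ratios of low genes. The ratio step was tested on simulated data. TMM and size factors came from edgeR 4.0.16 and DESeq2 1.42.0 on rounded expected counts, for alternatives only; Python 3.11.15, pandas 2.3.3 and R 4.3.3 were used. Alternatives covered the unit, scaling, pseudocount, detection threshold, a level filter, each pup alone, the motif settings and, added after values were seen, GENCODE symbols alone and the longest listed transcript as length.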

Additional observations from a re-analysis of the deposited data

How the results depend on the processing

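The number of genes found in both pups (14), only in pup 1 (10) and only in pup 3 (2) stayed within 1.5 times under every alternative run. The 15 genes 2-fold or more higher in pup 1 became 8 with a pseudocount of 10 and 7 among genes at a mean of 10 TPM or more. The median level of the 29 genes, 18.3 TPM, was 1.79 to 17.29 TPM in single pups. Their share of total TPM was 0.309% as the mean of both pups and 0.115% with the longest transcript as length. On that length snoRNA hosts held 68.5% of the set's TPM, against 42.9% as deposited; Malat1 reads are then divided by 6983 nt. Single pups gave 0.218 to 0.4% and 30.8 to 55.0% for these shares. With a run of at least 7 pyrimidines asked for, 6 genes held such a run in place of 14. For Oip5os1 the log2 ratio of −1.84 turned to 0.26 in CPM, 0.49 in CPM with TMM factors and 0.52 with the longest transcript. Of 182 ratios of single genes under alternatives, 155 stayed close, 24 moved and 3, those of Oip5os1, changed direction from a 2-fold difference. Snhg11, within 2-fold, also changed sign, from −0.18 to 0.49 in CPM, 0.74 in CPM with TMM factors and 0.78 with the longest transcript. The median log2 ratio over all genes found, 0.84, was 0.55 in FPKM, 0.99 with TMM factors, 1.01 with DESeq2 size factors and −0.09 in posterior mean TPM. No paired analysis was possible because there is 1 group. With 13 pg of RNA in 1 library per pup, a count of 0 limits reads and not molecules.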

Other observations

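Of 19 listed long non-coding RNAs outside the set, such as imprinted and X-linked RNAs, 9 were found only in pup 1, 2 only in pup 3 and 3 in both. All genes found had the same lean, with 37.9% only in pup 1 and 9.98% only in pup 3. So did the 428 other genes of long non-coding biotypes found, with 251 only in pup 1 and 82 only in pup 3. Meg3, an imprinted RNA of the Dlk1 locus, had 630.2 TPM in pup 1, against 207.5 TPM in pup 3. Rian, of the same locus, had 271.1 TPM in pup 1, against 199.2 TPM in pup 3. Ftx, of the X-inactivation centre, had 51.5 TPM in pup 1, against 0 in pup 3.

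The highest entry that GENCODE lists under a long non-coding biotype was Gm42418, at 12847 TPM in pup 1, against 4312 TPM in pup 3. Which RNA its reads came from was not tested, so it is not read here as the most abundant long non-coding RNA. Gm17750 stood at 133.8 TPM in pup 1, against 812.1 TPM in pup 3, and Gm3764 at 461.5 TPM in pup 1, against 112.1 TPM in pup 3. These 3 entries were chosen after their values were seen.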
